A study of Rattus norvegicus with 20 samples.

Results

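Chronic constriction injury (CCI) of the left sciatic nerve was compared with the uninjured side in rats fed the soy oil diet (SOD), using the left and right dorsal root ganglia (DRG) of the same 3 animals. The 6 libraries were chosen by their labels, as 3 SOD-CCI left and 3 SOD-CCI right libraries of 20 in the series, and no measured value entered that choice. All groups were female wild-type Sprague-Dawley rats. The SOD-CCI rats received the soy oil control diet for 4 weeks before the left sciatic nerve was loosely ligated with chromic gut, and the study places tissue collection 1 week after surgery, whereas the series description says only that the diets ran for 4 further weeks. A sham group on the same diet (SOD-CT, 4 libraries) and rats on a fish oil diet with CCI (FOD-CCI, 3 with both sides) were used as background. The right DRG comes from an animal with an injured nerve and is not a naive ganglion, and a planned SOD-CCI sample was excluded by the study before library preparation. The values below are CPM (read counts scaled to a common library size), and log2 differences are left minus right with the standard error (SE).

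The DRG holds the cell bodies of sensory neurons, each wrapped by satellite glia, with Schwann cells along the axons and resident macrophages between them. When a peripheral axon is damaged, the neuron is known to switch on transcription factors such as Atf3, Jun and Sox11, to make neuropeptides such as galanin and neuropeptide Y, and to express growth-associated genes. Injured neurons are also known to release Csf1 and Ccl2, which act on macrophages, and to lower the expression of several potassium channels and inhibitory receptors.

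The SOD-CCI left libraries held 27656472 to 29660266 counts and the right libraries 27874531 to 43158491, so counting error was small for most genes. Replicates of a side differed by far more than sampling noise (28.0 to 255 chi-square units per gene between pairs), so all were kept as separate samples. All 16 neuron markers, 7 satellite glia markers and 8 Schwann cell markers were detected in every SOD-CCI library. Neuron markers summed to 25613 to 30536 CPM on the left and 30739 to 37598 CPM on the right. The right library of rat 2 also held skeletal muscle transcripts at 1794 CPM summed over 8 markers, against 7.03 to 58.3 CPM in the other 5 libraries. Both libraries of rat 1 were the lowest of their side in Schwann cell markers. These were 10467 CPM on the right, against 39475 and 41805, and 13557 CPM on the left, against 23509 and 34377.

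A library outside the comparison bears on the test. In FOD-CCI rat 1, Atf3 was 3.24 CPM on the left and 6.62 CPM on the right, and Npy was 5.16 CPM on the left and 36.5 CPM on the right, whereas the left libraries of the other 2 FOD-CCI rats held 205 and 502 CPM of Atf3. The left library labelled FOD-CCI rat 1 therefore did not carry the higher Atf3 and Npy of the other injured ganglia. Its markers of spinal cord, whose tissue lies beside the ganglia, summed to 2178 CPM on the left and 3526 CPM on the right, against 151 to 194 CPM in the other FOD-CCI libraries, and their part in these values was not tested. Since the spread was estimated over both diets, counts of genes are given with all 12 libraries (the 12-library fit), without that rat (the 10-library fit) and from the SOD-CCI libraries alone (the 6-library fit).

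Between the sides, 19 genes were called in the 12-library fit (adjusted p at most 0.1 and at least 1.2-fold), which was 0.131% of the 14549 genes tested. Of these, 17 were higher on the left (0.117%) and 2 were lower (0.0137%). At an unadjusted p under 0.05 there were 1234 genes, against 727.45 expected if no gene differed. The 10-library fit called 471 of 14992 genes (3.14%), with 304 higher (2.03%) and 167 lower (1.11%). The 6-library fit called 1461 of 14794 genes (9.88%), with 892 higher (6.03%) and 569 lower (3.85%). All 19 genes of the 12-library fit were called in both smaller fits. Leaving out SOD-CCI rat 1 or 2 from the 12-library fit left 0 calls (557 genes at an unadjusted p under 0.05 in each case, edgeR), and leaving out SOD-CCI rat 3 left 2. In the 6-library fit, leaving out rat 1, 2 or 3 gave 1778, 840 and 1279 calls, each including all 19. The common dispersion was 0.140 with 12 libraries and 0.0616 with 6, and the median SD of the log2 left/right ratio between rats was 0.344 on SOD and 0.547 on FOD. In the 6 libraries themselves, 1617 tested genes (11.1%) had all 3 left values above all 3 right values, and 1375 (9.45%) had all 3 below.

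**Figure D1:**
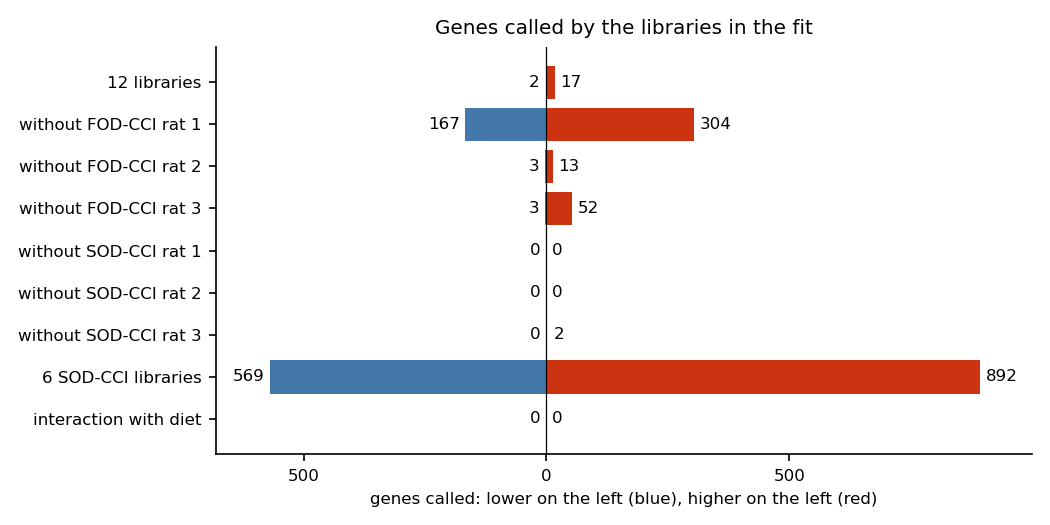
Genes called higher (red, to the right) and lower (blue, to the left) on the left side of SOD-CCI rats, by the libraries in the edgeR fit, with the interaction between side and diet in the last bar. The count goes from 19 with 12 libraries to 471 without FOD-CCI rat 1 and 1461 with the 6 SOD-CCI libraries, while the interaction calls 0.

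Among the gene lists, the injury neuropeptides had the largest median difference. The lists and their members were chosen with earlier results of these data known. The shares called, here and below, therefore describe the lists and are not separate support. Of 9 tested neuropeptides known to follow nerve injury, 3 were called higher in the 12-library fit, 7 of 10 in the 10-library fit and 6 of 7 in the 6-library fit, and none was called lower. These fits called 0.131%, 3.14% and 9.88% of all genes tested. Their median log2 difference was 2.76, beside 0.02 for all genes tested. In bulk tissue, fewer cells of a type and less RNA per cell cannot be told apart, and the same holds for more.

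Gal, which encodes galanin, was at 203, 136 and 140 CPM in the left ganglia of rats 1, 2 and 3 and at 20.7, 6.56 and 8.16 CPM on the right. Each left value was above every right value, and Gal rose by 3.93 ± 0.60 (log2, SE; adjusted p = 0.0939). Vgf, a precursor of secreted neuropeptides, was at 359, 283 and 287 CPM on the left and 48.7, 34.1 and 37.7 CPM on the right. The sides did not overlap, and the difference was 2.97 ± 0.37 (adjusted p = 0.0449). Adcyap1, which encodes the neuropeptide PACAP, was at 235, 213 and 207 CPM on the left and 38.0, 31.9 and 28.1 CPM on the right. It rose by 2.76 ± 0.43 (adjusted p = 0.0994), close to the threshold, and its 6-library estimate was the same with an SE of 0.18.

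Npy and Vip were widely separated between the sides. Npy, the gene of neuropeptide Y, went from 1.84, 3.68 and 1.22 CPM on the right to 390, 440 and 348 CPM on the left. Its difference was 7.59 ± 1.66 and was not called with 12 libraries (adjusted p = 0.202). The 6-library fit gave an adjusted p of 4.03e-14. The 10-library fit gave 7.58 ± 0.30 (adjusted p = 7.55e-06). That fit leaves out a rat picked by its Npy and Atf3 values, so this Npy call is not separate support. Vip, which encodes vasoactive intestinal peptide, held 1837, 1347 and 1056 counts on the left and 10, 14 and 8 on the right. It missed the filter because 2 of the 12 libraries held fewer than 10 counts, the right libraries of SOD-CCI rat 3 (8) and FOD-CCI rat 1 (1), and it was tested and called in the 10-library fit (7.15 ± 0.33, adjusted p = 1.47e-05). The ratio of the pooled levels was 149, and Vip was called without the filter (7.13, adjusted p = 1.65e-09). On the length-corrected scale of the deposited FPKM values, Npy averaged 677 on the left, above Gal at 223 and Adcyap1 at 169, and on the right these were 3.88, 16.4 and 25.2.

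Bdnf, a neurotrophin made by some sensory neurons, and Nts, the gene of neurotensin, are also on the list. Bdnf was higher by 1.74 (adjusted p = 0.00555) in the 10-library fit. Nts was at 11.1, 5.84 and 10.1 CPM on the left and 4.44, 4.29 and 3.60 CPM on the right, and was called in the 6-library fit (1.10 ± 0.35, adjusted p = 0.0655). Of 14 peptide receptors, 2 were called in the 6-library fit (14.3%, against 9.88% of all genes). These were Npy2r (1.40 ± 0.29, adjusted p = 0.00339), a receptor of neuropeptide Y, and Cckbr, a cholecystokinin receptor, at 10.3, 9.55 and 7.03 CPM on the left and 0.376, 0.502 and 1.02 CPM on the right.

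Promoter windows were read for the called genes from RefSeq (GRCr8, 250 bases before to 50 after the annotated start), which listed 11 of the 19. They are shown for the genes in which a searched motif was found, with the match in capitals. The motifs were TGANTCA (AP-1), TGACGTCA (CRE) and TTCNNNGAA (STAT), each of which reads the same on both strands. Of all 33469 windows, 7.33% held TGANTCA, 1.83% held TGACGTCA and 8.87% held TTCNNNGAA. Among the 10 matched genes called higher, 0, 1 and 1 held them, and the matched lower gene held TGANTCA, so the counts are too small to set against those shares. A match describes letters only.
Vgf, chr12:25276971-25277270, minus strand, TGACGTCA in capitals: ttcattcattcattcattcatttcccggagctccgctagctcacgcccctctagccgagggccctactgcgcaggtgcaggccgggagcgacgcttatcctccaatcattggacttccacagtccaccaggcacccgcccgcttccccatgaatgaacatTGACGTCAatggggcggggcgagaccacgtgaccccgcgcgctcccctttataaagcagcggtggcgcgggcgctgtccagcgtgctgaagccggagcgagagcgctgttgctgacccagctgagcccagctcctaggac
Ssc5d, chr1:77938525-77938824, minus strand, TTCNNNGAA in capitals: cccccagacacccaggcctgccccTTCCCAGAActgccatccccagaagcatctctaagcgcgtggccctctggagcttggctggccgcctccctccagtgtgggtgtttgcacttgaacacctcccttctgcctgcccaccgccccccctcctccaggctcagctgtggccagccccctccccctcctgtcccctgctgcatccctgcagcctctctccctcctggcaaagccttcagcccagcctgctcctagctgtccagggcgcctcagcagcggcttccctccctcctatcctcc
Pla2g7, chr9:24901698-24901997, minus strand, TGANTCA in capitals: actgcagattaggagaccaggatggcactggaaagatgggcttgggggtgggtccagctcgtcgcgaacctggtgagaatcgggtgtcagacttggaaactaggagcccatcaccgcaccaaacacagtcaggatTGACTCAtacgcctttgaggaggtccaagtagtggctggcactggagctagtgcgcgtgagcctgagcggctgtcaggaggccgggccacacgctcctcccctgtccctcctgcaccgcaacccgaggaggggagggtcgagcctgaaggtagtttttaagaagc

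Transcription factors of the injury response were mostly higher on the left. Of 25 tested, 24 had a positive difference, 1 was called in the 12-library fit, 8 in the 10-library fit and 14 in the 6-library fit, with none called lower. The 6-library share called was 56%, against 9.88% of all genes. Jun, a subunit of the AP-1 factor, was at 454, 372 and 346 CPM on the left and 98.7, 122 and 98.9 CPM on the right, and rose by 1.88 ± 0.25 (adjusted p = 0.0538). Atf3, a stress-induced factor often used to mark injured neurons, was at 329, 245 and 283 CPM on the left and 6.24, 14.97 and 8.21 CPM on the right. No left value came near a right value, and the difference was 4.96 ± 1.06 (adjusted p = 0.189). Atf3 was called in the 10-library fit (4.96 ± 0.38, adjusted p = 0.000463), which leaves out the rat picked by its Atf3 and Npy values. A second row of Atf3 in the count table behaved alike, at 19.2 to 23.8 CPM on the left and 0.400 to 1.31 CPM on the right. Sox11, a factor of developing and regenerating neurons, was at 38.5, 24.3 and 32.5 CPM on the left and 1.92, 3.31 and 3.67 CPM on the right, and was called in the 6-library fit (3.43 ± 0.29, adjusted p = 9.68e-08). The next called there by size were Csrnp1 (2.07), Smad1 (1.40), Fos (1.22) and Cebpd (1.15).

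**Figure D2:**
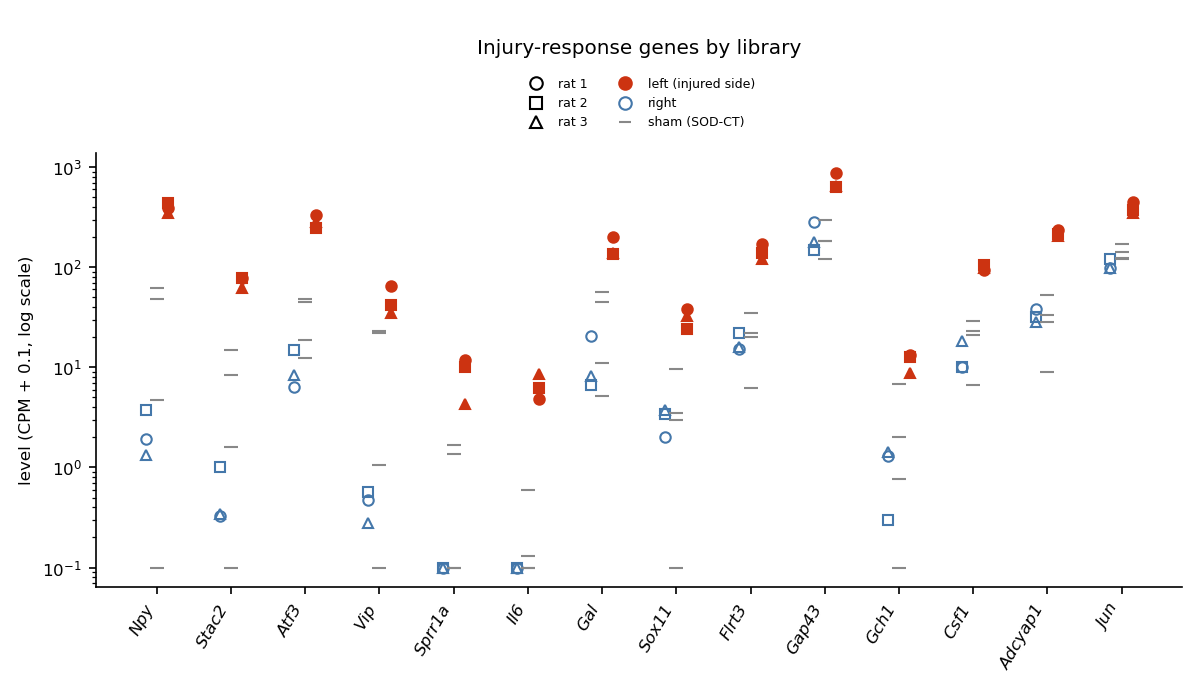
Levels of 14 genes of the injury response (CPM + 0.1, log axis) in each SOD library, with filled red symbols for the left DRG, open blue symbols for the right, symbol shape for the rat and gray bars for the 4 sham libraries. The 3 left values of Npy lie between 348 and 440 CPM and the 3 right values between 1.22 and 3.68 CPM.

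Axon growth genes gave the largest number of calls of the neuronal lists. Of 31 tested, 28 were higher on the left, and 18 were called higher and 2 lower in the 6-library fit, against 15 and 2 of 33 in the 10-library fit and 1 and 0 in the 12-library fit. The 6-library share called was 64.5%, against 9.88% of all genes. Ecel1, a membrane peptidase of injured neurons, was at 36.8, 29.1 and 27.9 CPM on the left and 2.97, 2.48 and 2.94 CPM on the right, and rose by 3.49 ± 0.52 (adjusted p = 0.0939). Gap43, a protein of growth cones, was at 875, 633 and 651 CPM on the left and 281, 149 and 181 CPM on the right. It was not called with 12 libraries (1.87 ± 0.35, adjusted p = 0.151) and was called with 10 (adjusted p = 0.0101). Flrt3, a cell adhesion and guidance protein, was 3.04 ± 0.50 higher (adjusted p = 0.110) and Tubb2b, a beta-tubulin, 1.55 ± 0.25 higher (adjusted p = 0.109), both just outside the threshold with 12 libraries and inside it with 10.

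Sprr1a, which encodes a small proline-rich protein linked to axon outgrowth, had 332, 315 and 127 counts on the left and 0 in all 3 right libraries. Against a floor of 3 counts over the right libraries together, its level was at least 291-fold higher. Without the filter it was called (adjusted p = 0.000512). Among the lower members in the 6-library fit was Nrn1 (-1.06), which encodes neuritin.

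Neurofilaments and microtubule genes moved less. Of 19 tested, 3 were called higher and 1 lower in the 6-library fit (21.1% called, against 9.88% of all genes). Nefl, the light neurofilament, was at 5071, 4437 and 4365 CPM on the left and 7150, 8942 and 9437 CPM on the right. It was not called with 12 libraries (-0.86 ± 0.64, adjusted p = 0.804) and was called with 10 (adjusted p = 0.0385). Nefh overlapped between the sides and was not called (-0.49 ± 0.22 in the 6-library fit, adjusted p = 0.22).

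Among ion channel genes tested, Cacna2d1 had the largest difference. This auxiliary calcium channel subunit, known as the binding site of gabapentin, was at 248, 306 and 256 CPM on the left and 44.6, 41.3 and 58.1 CPM on the right. It rose by 2.51 ± 0.33 (adjusted p = 0.0449), and Cacnb1, another auxiliary subunit, was called higher in the 6-library fit (1.00 ± 0.19, adjusted p = 0.00198). Of 17 calcium channel genes, 3 were called higher and 1 lower there (23.5% called, against 9.88% of all genes).

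Sodium channels divided by subunit. Of 12 tested, 2 were called higher and 1 lower in the 6-library fit (25% called, against 9.88% of all genes). Scn9a was at 336, 320 and 362 CPM on the left and 346, 219 and 362 CPM on the right, and Scn10a was at 287, 326 and 270 CPM on the left and 318, 287 and 370 CPM on the right. Both are pore-forming subunits of nociceptors, both overlapped between sides, and neither was called in any of the 3 fits. Scn1a was lower (-1.21 ± 0.17, adjusted p = 4.8e-05), and the subunits Scn3b (1.26 ± 0.17, adjusted p = 5.72e-05) and Scn3a (2.06 ± 0.34, adjusted p = 0.00036) were higher in the 6-library fit. None of the 3 was called with 12 libraries.

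Potassium and HCN channels had the most negative median of the lists, at -0.41 against 0.02 for all genes. Of 35 tested, 3 were called higher and 9 lower in the 6-library fit (34.3% called, against 9.88% of all genes), 1 and 3 in the 10-library fit and 0 with 12 libraries. Kcns1, a modifier subunit of voltage-gated potassium channels, was at 51.7, 39.7 and 38.5 CPM on the left and 137, 180 and 118 CPM on the right. The 3 left values were all below the 3 right values, and the 6-library difference was -1.73 ± 0.19 (adjusted p = 2.97e-06). Kcns3 (-1.51) and Kcnab1 (-1.06) were lower too. Among the higher ones were Kcnn1 (1.54 ± 0.32) and Hcn3 (0.79).

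Transducer channels showed no shared direction, with 3 higher and 4 lower of 25 in the 6-library fit (28% called, against 9.88% of all genes). Trpv1, the capsaicin receptor, overlapped between sides (112, 106 and 91.4 CPM on the left and 138, 91.2 and 95.2 CPM on the right) and was not called. Trpa1, a receptor of irritants, was at 100, 113 and 116 CPM on the left and 73.8, 48.2 and 75.6 CPM on the right, and was called with 10 libraries (0.77 ± 0.19, adjusted p = 0.0904) and with 6, not with 12. Piezo2, a mechanosensitive channel, overlapped.

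Receptors that inhibit sensory neurons were mainly lower. Of 20 tested, 15 were lower on the left, 1 was called lower with 12 libraries, 5 of 22 with 10 and 7 of 22 with 6, against 1 called higher in each of the smaller fits. The 6-library share called was 36.4%, against 9.88% of all genes. Cnr1, the cannabinoid receptor of neurons, was at 25.8, 18.1 and 15.1 CPM on the left and 62.0, 61.9 and 41.9 CPM on the right, and fell by 1.49 ± 0.21 on the log2 scale (adjusted p = 0.0548). The serotonin receptor gene Htr1d (-1.75) and the kappa opioid receptor gene Oprk1 (-1.01) were lower in the 6-library fit, while Gabra5, a GABA-A receptor subunit, was higher (1.86 ± 0.24). Oprm1, the mu opioid receptor gene, was low (5.64, 7.13 and 5.14 CPM on the left and 2.93, 2.75 and 6.90 CPM on the right), overlapped and was not called.

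Of the 2 genes called lower with 12 libraries, Pla2g7 had the larger decrease. The enzyme it encodes breaks down platelet-activating factor. Its level was 26.8, 16.5 and 13.6 CPM on the left and 105, 77.6 and 72.6 CPM on the right, so no value overlapped. It fell by 2.20 ± 0.27 on the log2 scale (adjusted p = 0.0449). Of 15 genes of endocannabinoid and platelet-activating factor metabolism, it was the 1 called with 12 libraries, where 0.131% of all genes were called. In the 6-library fit, 1 of 14 was called higher and 2 lower (21.4% called, against 9.88% of all genes). Abhd12, a lipase, was also lower there (-0.76 ± 0.17).

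Of 14 tested enzymes of arginine, polyamine and tetrahydrobiopterin metabolism, 2 were called higher with 12 libraries, where 0.131% of all genes were called. In the 6-library fit, 3 of 13 were called higher and 1 lower (30.8% called, against 9.88% of all genes). Arg1, an arginase, was at 14.3, 14.6 and 11.3 CPM on the left and 1.13, 1.31 and 0.756 CPM on the right. It rose by 3.69 ± 0.44 (adjusted p = 0.0449), and it was also 1 of the 2 genes called between the sides in FOD-CCI rats, with Ssc5d. Spr, which makes the last step of tetrahydrobiopterin synthesis, was at 76.9, 75.9 and 77.0 CPM on the left and 33.0, 30.5 and 27.7 CPM on the right (1.35 ± 0.18, adjusted p = 0.0538). Gch1, the first enzyme of that pathway, missed the filter through the right libraries of SOD-CCI rat 2 (6 counts) and FOD-CCI rat 1 (0 counts). It was at 13.2, 12.6 and 8.65 CPM on the left and 1.203, 0.201 and 1.31 CPM on the right, and was called in the 10-library fit (3.84 ± 0.65, adjusted p = 0.0219). Azin2, an antizyme inhibitor in polyamine metabolism that was on no list, was at 104, 100 and 96.3 CPM on the left and 52.2, 34.2 and 38.8 CPM on the right and was called (1.30 ± 0.20, adjusted p = 0.0987).

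**Figure D3:**
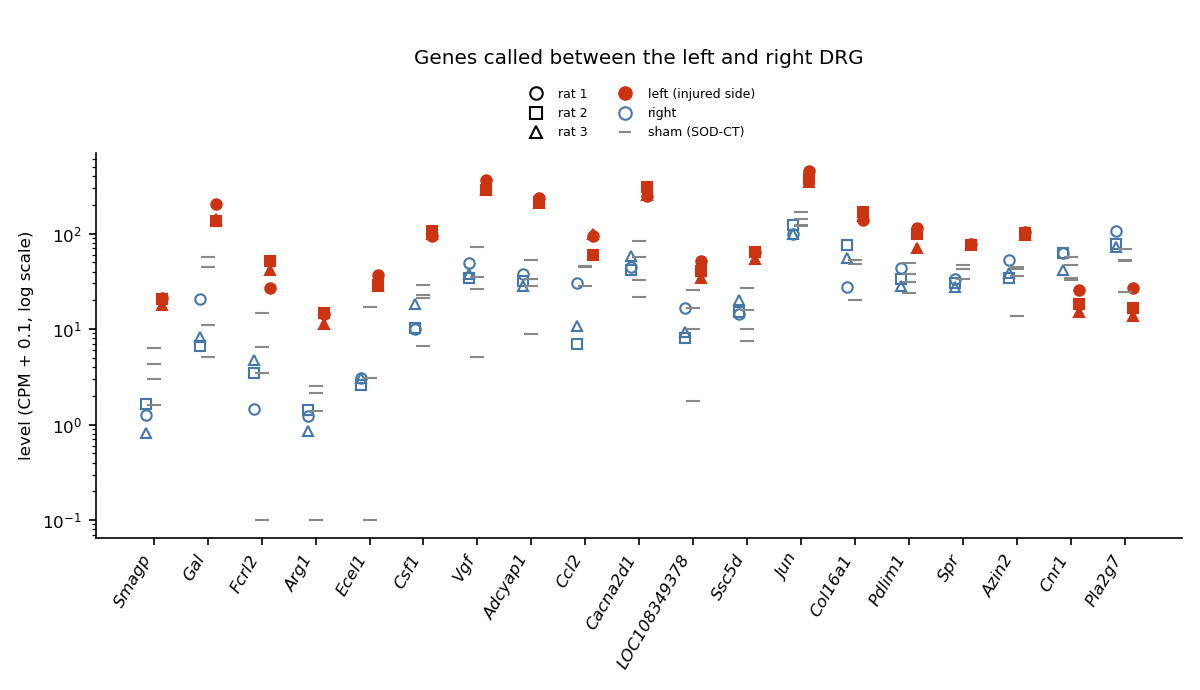
Levels of the 19 genes called in the 12-library fit (CPM + 0.1, log axis), ordered by log2 difference, in the left (filled red) and right (open blue) DRG of the 3 SOD-CCI rats and in the 4 sham libraries (gray bars). All 19 have sides that do not overlap, with 17 higher and 2 lower (Cnr1 and Pla2g7) on the left. The same values entered the calls, so this is not separate evidence. Of all genes tested, 11.1% had all left values above and 9.45% below all right values.

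Csf1 and Ccl2, known signals to macrophages, rose on the left, where macrophage genes were also higher. Csf1, the ligand of the receptor Csf1r, was at 94.6, 106 and 98.5 CPM on the left and 9.89, 10.1 and 18.0 CPM on the right (3.04 ± 0.47, adjusted p = 0.0987). Ccl2, a monocyte chemokine, was at 94.2, 60.2 and 99.7 CPM on the left and 30.2, 6.90 and 10.7 CPM on the right (2.67 ± 0.33, adjusted p = 0.0449). Both were called. Il6 had 132, 195 and 254 counts on the left and 0 in each right library, which against the floor of 3 counts was at least 218-fold higher. Of 17 cytokine and chemokine genes, 2 were called higher with 12 libraries and 10 with 6 (58.8%, against 9.88% of all genes), and none was called lower.

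All 22 tested macrophage genes had a positive difference, with a median of 1.79, but none was called with 12 libraries. All left values were above all right values for 15 of them, where 11.1% of all genes tested did so. In the 6-library fit 10 of 17 were called (58.8%, against 9.88% of all genes), and in the 10-library fit 4 of 24. Csf1r, the receptor of Csf1, was at 52.3, 88.4 and 67.1 CPM on the left and 5.42, 17.9 and 25.9 CPM on the right, and Aif1 was at 16.7, 17.5 and 13.9 CPM on the left and 3.84, 5.56 and 5.38 CPM on the right. The 10 macrophage markers summed to 173, 269 and 223 CPM on the left and 27.7, 55.4 and 74.6 CPM on the right, with at most 1 marker at 0 in any of these libraries. The sham libraries had 48.3, 171, 150 and 147 CPM. The first, rich in muscle transcripts, lay within the range of the right side. The other 3 were above the right side and below the left, the highest of them only just. Csf1r reached 55.5 CPM in sham, above its lowest left value. Whether more macrophages accounted for the immune genes was not tested.

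Complement, antigen presentation and interferon genes followed the same direction. Of 19 complement genes all were higher on the left. In the 6-library fit 12 of 18 were called (66.7%, against 9.88% of all genes) and in the 10-library fit 9 of 21. C1qb was at 31.7, 31.2 and 32.6 CPM on the left and 3.76, 4.96 and 7.54 CPM on the right, and C3, the central complement protein, at 10.4, 35.5 and 20.0 CPM on the left and 1.65, 4.55 and 6.61 CPM on the right. The 4 tested MHC class II genes were all called in both smaller fits, which called 3.14% (10 libraries) and 9.88% (6 libraries) of all genes. The highest in level was Cd74 (226, 323 and 337 CPM on the left and 29.5, 79.1 and 95.2 CPM on the right). Of 17 interferon response genes, 16 were higher and 9 were called in the 6-library fit (52.9%, against 9.88% of all genes). Among them was Mx2 (1.64 ± 0.20, adjusted p = 1.18e-05), an antiviral GTPase.

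Matrix genes differed between rats. Of 20 tested, 10 were called higher in the 6-library fit (50%, against 9.88% of all genes) and none with 12 libraries. All left values were above all right values for 3 and below them for 2, where 11.1% and 9.45% of all genes tested did so. The median log2 ratio was 1.37 in rat 1, 0.03 in rat 2 and 0.34 in rat 3. Fibroblast markers summed to 1437 CPM on the left and 468 CPM on the right in rat 1, to 2821 and 2458 CPM in rat 2 and to 2326 and 1504 CPM in rat 3. Dcn, the gene of decorin, was at 356, 884 and 618 CPM on the left and 134, 573 and 401 CPM on the right. Its left and right values overlapped across rats, although in each rat the left was higher (0.90 ± 0.19 in the 6-library fit, adjusted p = 0.00417). Col16a1, a collagen chain that was on no list, was called with 12 libraries (1.64 ± 0.25, adjusted p = 0.0939). Its level was 140, 166 and 154 CPM on the left and 27.7, 76.4 and 55.9 CPM on the right.

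Satellite glia and myelinating Schwann cell genes had few calls. Of 14 satellite glia genes 1 was called in the 6-library fit (7.14%, against 9.88% of all genes). This was Gfap, an intermediate filament of reactive glia, at 39.7, 38.5 and 46.2 CPM on the left and 4.29, 22.0 and 14.7 CPM on the right (1.86 ± 0.32, adjusted p = 0.000579). None of 14 myelinating Schwann cell genes was called in any of the 3 fits, and their median log2 ratio was 0.59 in rat 1, -0.70 in rat 2 and -0.03 in rat 3. At an unadjusted p under 0.05 the whole 6-library fit had 2794 genes. Of 10 repair Schwann cell genes, 2 were called higher and 1 lower in the 6-library fit (30%, against 9.88% of all genes). None was called with 12 libraries, and the median difference was 0.41.

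**Figure D4:**
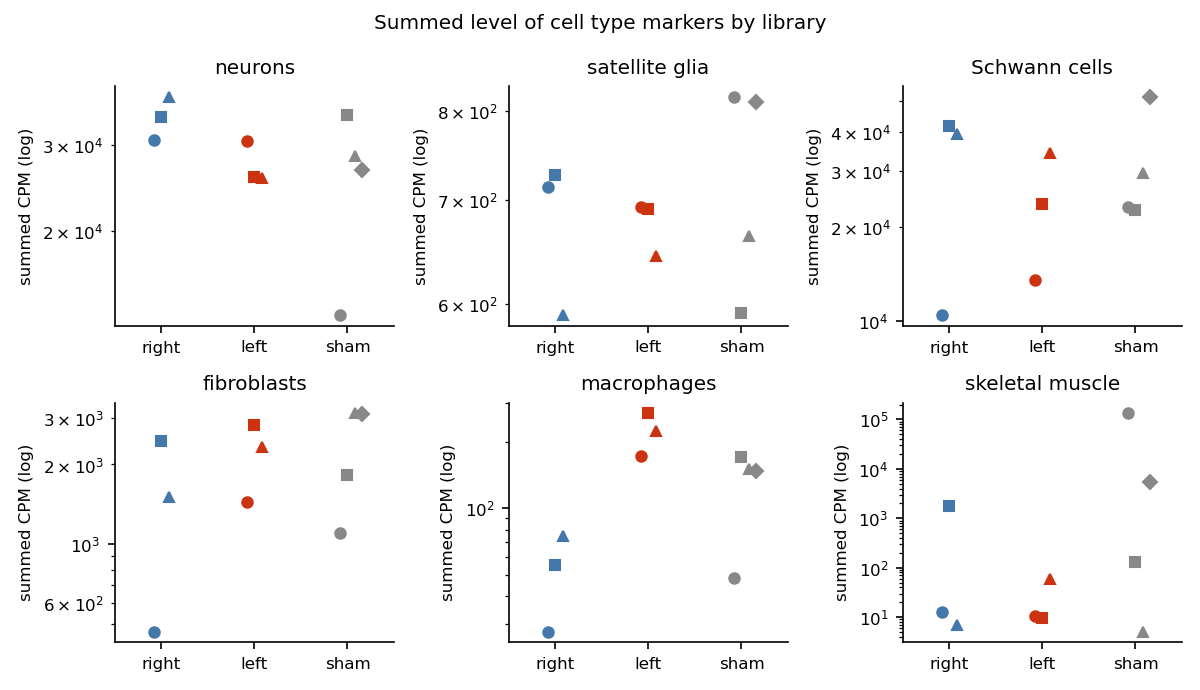
Summed CPM of cell type markers (log axis) in the right DRG, the left DRG and the sham DRG on the soy oil diet, with one symbol per library. The macrophage sum is 173 to 269 CPM on the left and 27.7 to 74.6 CPM on the right, while satellite glia markers overlap.

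The remaining called genes belonged to no list. Fcrl2, an Fc receptor-like gene, had the smallest adjusted p, at 27.1, 51.7 and 41.2 CPM on the left and 1.35, 3.35 and 4.69 CPM on the right (3.79 ± 0.31, adjusted p = 0.00875). Smagp, a small adhesion glycoprotein, was at 21.1, 20.6 and 17.8 CPM on the left and 1.17, 1.54 and 0.712 CPM on the right (4.19 ± 0.52). Ssc5d, a scavenger receptor, was at 64.0, 63.9 and 53.5 CPM on the left and 14.3, 14.8 and 19.9 CPM on the right (1.91 ± 0.24). These 3 were higher in every rat. Pdlim1, an actin-associated protein, rose by 1.45 ± 0.19 and LOC108349378 by 1.97 ± 0.25, each with adjusted p = 0.0449.

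Beyond the lists, the genes nearest to the threshold were Rhoq, a small GTPase (358, 323 and 337 CPM on the left and 116, 99.3 and 93.9 CPM on the right), and Il13ra1, an interleukin receptor chain, each with adjusted p = 0.1003 and not called with 12 libraries. Stac2, an adaptor protein, was at 78.8, 77.2 and 62.6 CPM on the left and 0.226, 0.904 and 0.245 CPM on the right, a difference of 7.47 ± 1.26 (adjusted p = 0.120 with 12 libraries and 0.00036 with 10). Among those lower on the left, Lypd1 was at 8.001, 5.72 and 6.30 CPM against 36.5, 22.5 and 16.4 CPM, and Sorl1, a sorting receptor, at 61.2, 40.7 and 40.1 CPM against 153, 153 and 118 CPM. Rem2, a small GTPase, was at 8.18, 3.36 and 2.12 CPM against 30.3, 40.8 and 22.7 CPM. These 3 were called in the 6-library fit and not with 12 libraries.

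Neuropeptides and markers of sensory neuron classes showed smaller differences. Calca, the gene of the calcitonin gene-related peptide, was at 1393, 1131 and 1240 CPM on the left and 958, 546 and 845 CPM on the right, and Tac1, the gene of substance P, at 460, 358 and 434 CPM on the left and 433, 165 and 226 CPM on the right. Both were called higher in the 6-library fit (0.72 ± 0.18 and 0.73 ± 0.19) and not with 12 libraries. Calcb and Sst overlapped and were not called. Of 25 sensory neuron identity genes, 1 was higher and 4 lower in the 6-library fit (20% called, against 9.88% of all genes). Pvalb, a marker of proprioceptors, was lower, at 149, 90.1 and 111 CPM on the left and 375, 302 and 164 CPM on the right. Pvalb is also a muscle gene, and the right library of rat 2 held muscle transcripts.

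Of 75 oxidative phosphorylation subunits found by symbol, 73 were lower on the left with a median of -0.35, yet the per-rat medians were -0.67, -0.38 and -0.02. In the 6-library fit 12 were called lower (16%, against 9.88% of all genes called in either direction) and with 12 libraries none. The 45 cytosolic ribosomal protein genes had no call in the 12-library or 6-library fit and a median of -0.05. Ferroptosis and glutathione genes had 3 called higher of 29 in the 6-library fit (10.3%), near the 9.88% of all genes. Gpx4, which reduces lipid peroxides, was at 479, 359 and 443 CPM on the left and 859, 493 and 439 CPM on the right, overlapped and was not called.

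**Figure D5:**
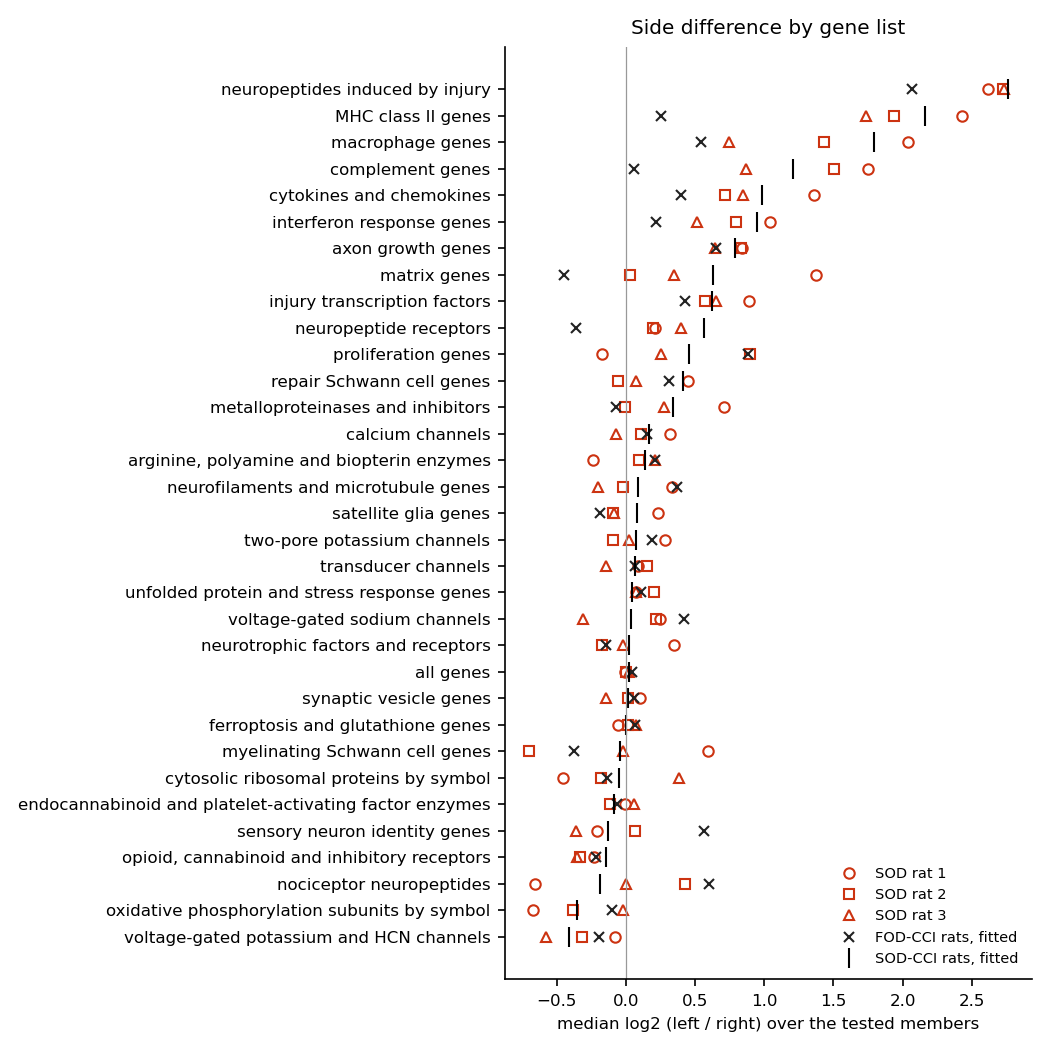
Median log2 left/right ratio over the tested members of each gene list, with open symbols for the 3 SOD-CCI rats, a bar for the fitted SOD-CCI difference and a cross for the fitted FOD-CCI difference. Injury neuropeptides have a median of 2.76 and potassium and HCN channels of -0.41, against 0.02 for all genes.

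The sham ganglia on the same diet give the background for the left side. Npy was at 0, 47.5, 4.57 and 61.5 CPM in the 4 SOD-CT libraries and Atf3 at 18.7, 44.6, 12.3 and 48.4 CPM, in each case below every SOD-CCI left value. So were Gal, at 5.05, 56.1, 10.9 and 44.7 CPM, and Vip, at 0, 22.0, 0.952 and 23.1 CPM. These peptides were all higher in the same sham libraries, the second and the fourth. The first sham library held 132430 CPM of muscle markers. Its neuron markers summed to 13429 CPM, against 26677 to 34533 CPM in the other sham libraries. Its satellite glia markers summed to 817 CPM, against 591 to 810 CPM. The part of muscle in its other values was not tested. Jun was at 120 to 169 CPM and Cacna2d1 at 21.3 to 83.2 CPM in sham, also below the left side. Other genes did not follow that order. C3 was at 3.88 to 25.2 CPM in sham, overlapping the left side, and Dcn was at 543 to 1270 CPM with a median of 967, above every left value. Pla2g7 was at 24.2 to 68.8 CPM in sham, below every right value (72.6 to 105 CPM). Vip averaged 11.5 CPM in sham and 0.341 CPM on the right, so its left level stood less far above sham than above the right.

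The question of whether diet alters the side difference was addressed by the interaction, FOD-CCI minus SOD-CCI. No gene was called by edgeR (0 of 14549, smallest adjusted p 0.997, 424 genes at an unadjusted p under 0.05), and the count stayed 0 without FOD-CCI rat 1 (498 at that p), while DESeq2 called 60. The median over macrophage genes was 1.79 on SOD and 0.54 on FOD, over MHC class II genes 2.16 and 0.26, over complement genes 1.21 and 0.05 and over matrix genes 0.63 and -0.45. For injury neuropeptides it was 2.76 and 2.07. The FOD values include rat 1, with its higher spinal cord markers, and the rats differed. Neuron markers in the right library of FOD-CCI rat 1 summed to 4478 CPM, against 33678 and 29549 CPM in rats 2 and 3. In FOD-CCI rats 1, 2 and 3 the median log2 ratio was -0.80, 1.42 and 0.51 over macrophage genes, -1.44, 1.23 and 0.73 over MHC class II genes, -0.75, 1.08 and 0.01 over complement genes and -0.77, -0.04 and -0.67 over matrix genes. The part of rat 1 in the fitted FOD medians was not tested. Unadjusted, p was under 0.05 in the edgeR interaction for 9 of 19 complement, 10 of 20 matrix, 4 of 22 macrophage and 3 of 4 MHC class II genes. It was so for 1 of 9 injury neuropeptides and 424 of 14549 genes tested. Members of a list were measured in the same few rats and are not separate evidence. No gene of these lists passed adjustment in edgeR.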

How the data were processed

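RNA of whole DRG was sequenced in 20 libraries. Per the labels, the authors used fastp for trimming, HISAT2 for alignment and featureCounts 1.5.0-p3 for counts per gene. The genome build and the use of strand are not given in the sources used here. The deposited counts are whole numbers for 39747 gene rows and were tested as deposited. The deposited FPKM values, made by the authors from those counts, were used only to compare levels between genes. Sample groups came from the labels, and the rat number in each library name paired the sides. Deviations from the group means correlated within all 6 rats (0.132 to 0.415).

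Genes with at least 10 counts in 11 of 12 libraries were kept. Differences were fitted with edgeR 4.0.16 (TMM, quasi-likelihood test, two-sided) in R 4.3.3, with rat as a block and side within diet, over the 6 CCI rats with both sides. Calls needed a p no higher than 0.1 after Benjamini-Hochberg adjustment over all genes tested and a change of 1.2-fold or more. The fit was tested on simulated data. Counts were drawn independently from the means and dispersions of the same fit, with 200 genes changed. The rates below hold for that setting and are not error rates of the calls above. With 12 libraries it recovered 11 of 97 changes of log2 size 1 and 70 of 103 of size 2, and 6.9% of its calls were wrong. With 6 libraries these were 57 of 98, 96 of 102 and 8.38%. A gene not called with 12 libraries is therefore not shown to be unchanged. DESeq2 1.42.0 and limma 3.58.1 were loaded for alternatives and helper functions. CPM values use library totals times TMM factors, and per-rat ratios add 0.5 CPM. The SE comes from the edgeR fit and includes the spread between libraries, whereas floors cover counting error only. Text names every called gene, the key genes of each list, the 3 members of each list with the smallest p, and 8 genes higher and 8 lower outside the lists. Bdnf, Cckbr, Csrnp1, Smad1, Fos, Cebpd, Nrn1, Kcns3, Kcnab1, Hcn3, Htr1d and Oprk1 were named after their values were seen. Some genes that the rule names are not reported here. The members and lists were chosen with earlier results of these data known. Of 598 list genes, 590 were found. The 6-library alternatives were added after seeing the data, and FOD-CCI rat 1 was singled out for the 10-library fit by its values.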

Additional observations from a re-analysis of the deposited data

Results flagged for a closer look

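Postn and Dcn, both matrix genes, were higher on the left in all 3 SOD-CCI rats and lower on the left in all 3 FOD-CCI rats. The fitted difference between the diets (FOD-CCI minus SOD-CCI) was -2.34 for Postn and -1.92 for Dcn on the log2 scale. Neither passed the interaction test after adjustment (smallest adjusted p over all genes 0.997). They came from a search of the named genes for opposite directions in every rat, and the share of all genes with that pattern was not counted. The FOD-CCI rats include rat 1, with its higher spinal cord markers.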

How the results depend on the processing

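The count of 19 genes (17 higher and 2 lower) was 472 (338 and 134) with the DESeq2 Wald test, 220 (180 and 40) with no filter on low counts, 39 (36 higher) with filterByExpr, 10 (9 and 1) at an adjusted p of at most 0.05 and 1461 (892 and 569) in the 6-library fit. With DESeq2 size factors, robust dispersion or a length offset it was 14 to 21. With no replicate block, and so without pairing the sides of a rat, edgeR called 0 genes, 0 higher and 0 lower (775 at an unadjusted p under 0.05), and the 6-library fit called 491. Leaving out a rat gave counts from 0 to 1778 (0 to 933 higher and 0 to 845 lower), where the high end comes from the 6-library fit without SOD-CCI rat 1. Among the 12-library fits it was 0 without SOD-CCI rat 1 or 2, 2 without SOD-CCI rat 3, 471 without FOD-CCI rat 1, 16 without FOD-CCI rat 2 and 55 without FOD-CCI rat 3. Within the 6-library fit it was 840 to 1778 when a rat was left out. The interaction called 60 genes with the DESeq2 Wald test and 3 with no filter, and 0 under the other alternatives run. The cause of these shifts was not tested beyond the libraries named.

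Of the named genes, 5, none called with 12 libraries, changed sign when a rat was left out. Their log2 differences ranged from -0.15 to 0.48 for Calcb, -0.30 to 0.029 for Scn10a, -0.023 to 0.27 for Scn9a, -0.18 to 0.079 for Trpv1 and -0.19 to 0.28 for Piezo2. Piezo2 was also -0.021 with no replicate block and -0.080 with the length offset. Of the other values of named genes, 1550 kept direction and side of the threshold, 91 lost the call and 500 gained it. Sprr1a and Il6 missed the filter with 0 counts in every SOD-CCI right library. Vip and Gch1 missed it through 2 libraries, 1 of them from FOD-CCI rat 1, and were tested without that rat.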
